A study of Mus musculus with 30 samples.

Results

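The gasdermin genes were followed in colon epithelium of male and female mice given the carcinogen azoxymethane (AOM) and the intestinal irritant dextran sulfate sodium (DSS). The members were 6 gasdermin genes chosen by name, *Gsdma*, *Gsdmc*, *Gsdmc2*, *Gsdmc3*, *Gsdmc4* and *Gsdmd*, of the 46078 genes of the count table, which also held 7 further gasdermin loci that are described after them. RNA came from the scraped epithelial layer of the colon of wild-type C57BL/6J mice that were 5 to 10 weeks old at the start. There were 6 groups of 5 mice, with 1 library per mouse. Female and male vehicle mice received saline by intraperitoneal injection and were killed at 9 weeks. Female and male AOM/DSS mice received 1 intraperitoneal injection of AOM at 10 mg/kg and 3 cycles of 2.5% DSS in drinking water, and were killed at 9 or at 15 weeks. All vehicle libraries analysed here came from mice killed at 9 weeks, so the effect of AOM/DSS at 15 weeks and that of the later age cannot be told apart, and both AOM/DSS time points were compared with the same vehicle libraries. A scrape is a bulk sample in which fewer cells of a type and less RNA per cell cannot be told apart.

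Gasdermins are cytosolic proteins with a pore-forming amino-terminal part held in check by a carboxy-terminal part. Proteases such as caspases and granzymes cut the linker between them, and the freed amino-terminal part inserts into the membrane, which releases cytokines such as interleukin-1β and interleukin-18 and can end in the lytic death called pyroptosis. *Gsdmd* is the substrate of the inflammasome caspases. Humans have a single GSDMC gene where the mouse has a cluster of copies, which are expressed in intestinal epithelium. *Gsdma* is best known from skin.

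The *Gsdmc* copies lie side by side on the minus strand of chromosome 15 in GRCm38, the build of the files. *Gsdmc* (ENSMUSG00000079025) occupies chr15:63775968-63808759, *Gsdmc2* (ENSMUSG00000056293) chr15:63824346-63845177, *Gsdmc3* (ENSMUSG00000055827) chr15:63857724-63878558 and *Gsdmc4* (ENSMUSG00000055748) chr15:63891264-63912297, a span of 136 kb. Between and beside them, on the plus strand, the annotation places the pseudogenes *Gsdmcl1*, *Gsdmcl2* and *Gsdmcl-ps*. *Gsdmd* (ENSMUSG00000022575) lies further along the same chromosome, at chr15:75862339-75867404 on the plus strand, and *Gsdma* (ENSMUSG00000017204) at chr11:98664351-98677708 on the plus strand.

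*Gsdmc2*, *Gsdmc3* and *Gsdmc4* are close to identical, which bears on each of their values, since a read from a shared stretch cannot by itself be assigned to 1 of them. The coding sequences of *Gsdmc2* and *Gsdmc3* were identical at 97.1% of aligned bases, *Gsdmc2* and *Gsdmc4* at 93.5%, and *Gsdmc3* and *Gsdmc4* at 93.4%, while *Gsdmc* matched the other 3 at 86.1% to 86.4%. Of all 51-base stretches in the transcripts, 50.7% for *Gsdmc2*, 45.4% for *Gsdmc3*, 38.5% for *Gsdmc4* and 15.8% for *Gsdmc* also occurred in another gene. The study's methods give paired reads of 51 bases. These shares are for single reads, and the other read of a pair can still tell the genes apart. For *Gsdma* the share was 7.88%, all with *Gsdma2* and *Gsdma3*, and for *Gsdmd* it was 0. The levels of *Gsdmc2*, *Gsdmc3* and *Gsdmc4* are therefore uncertain where reads could be split among them, and those of *Gsdmd* are not touched by this. A stretch of 90 bases in coding exon 8 shows where reads can be told apart. It is given 5′ to 3′ as transcribed from the minus strand, with capitals at the 18 positions at which the 3 genes are not all alike.
Gsdmc2, chr15:63826834-63826923: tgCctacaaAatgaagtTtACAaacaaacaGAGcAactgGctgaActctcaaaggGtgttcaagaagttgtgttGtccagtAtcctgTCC
Gsdmc3, chr15:63860264-63860353: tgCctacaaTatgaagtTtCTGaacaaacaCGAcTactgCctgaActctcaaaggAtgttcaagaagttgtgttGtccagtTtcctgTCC
Gsdmc4, chr15:63893781-63893870: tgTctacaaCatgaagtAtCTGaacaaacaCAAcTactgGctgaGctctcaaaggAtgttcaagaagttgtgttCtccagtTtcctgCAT

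The opposite case is a run that covers coding bases 256 to 401 across exons 2 and 3, which is the same in all 3 genes and is the longest of 6 such runs of at least 51 bases.
Shared by Gsdmc2, Gsdmc3 and Gsdmc4: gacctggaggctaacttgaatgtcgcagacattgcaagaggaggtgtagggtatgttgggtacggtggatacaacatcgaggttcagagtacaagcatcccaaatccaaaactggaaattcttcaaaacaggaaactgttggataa
A read that lies wholly inside this run carries by itself no information on which of the 3 genes it came from.

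The libraries held 9265804 to 30806392 counts on genes, and 5 of the 6 members passed the filter on low counts, as did 16261 genes in all. Counts are given in CPM, counts divided by the scaled library size, and a gene was called when it had an adjusted p below 0.05, a log2 fold change above 0.4 or below -0.4, and a mean FPKM of at least 1 in a compared group. The summed CPM of 8 epithelial markers lay between 10080 and 18571 in the 30 libraries, so the scrapes held epithelium throughout. Libraries differed in what came with it. Male vehicle replicate 1 had 43046 counts of *Myh11*, a smooth muscle gene, and the summed CPM of 7 smooth muscle markers spanned 33.7 to 5449 in male vehicle libraries against 14.7 to 74.9 and 2.13 to 68.4 in male AOM/DSS libraries at 9 and 15 weeks. Female 9-week AOM/DSS replicate 5 had 8 counts of *Il1b* and 0 of *S100a8*, whereas the other 4 libraries of its group had 458 to 5308 counts of *Il1b*. Values without male vehicle replicate 1 and without female 9-week AOM/DSS replicate 5, which were added after seeing the data for the gene lists, are given beside the calls reported here that they change.

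Per transcript length, 3 of the *Gsdmc* copies had the highest median levels among the gasdermins of this epithelium. Levels are given in TPM, which divides by transcript length and so allows genes to be compared within a library. Over the 30 libraries the median of *Gsdmc4* was 322 TPM (range 50.7 to 585), of *Gsdmc2* 187 TPM (74.9 to 525) and of *Gsdmc3* 76.8 TPM (22.3 to 237). *Gsdmd* followed with a median of 50.0 TPM (19.1 to 105), and *Gsdmc* and *Gsdma* were low at 2.13 TPM (0.609 to 7.06) and 0.692 TPM (0.121 to 1.83). The order of neighbours was not equally firm. *Gsdmc4* was above *Gsdmc2* in 24 of 30 libraries, with a median ratio of 1.30, and their mean ± SD ranges overlapped in all 6 groups. Such ranges show the spread of each gene between mice, so they do not measure the spread of the difference within a library. *Gsdmc2* was above *Gsdmc3* in 30 of 30 libraries, *Gsdmc3* above *Gsdmd* in 24, *Gsdmd* above *Gsdmc* in 30 and *Gsdmc* above *Gsdma* in 29. The mean ± SD ranges overlapped in 3 of 6 groups for *Gsdmc2* and *Gsdmc3*, in 5 for *Gsdmc3* and *Gsdmd*, in 0 for *Gsdmd* and *Gsdmc* and in 3 for *Gsdmc* and *Gsdma*. The last place turned with the source of the values, since by counts divided by exonic length *Gsdma* was above *Gsdmc* in 30 of 30 libraries. In the median library *Gsdmc4* ranked 161.5 among all genes by TPM, *Gsdmc2* 214.5, *Gsdmc3* 580.5 and *Gsdmd* 836.5.

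**Figure D1:**
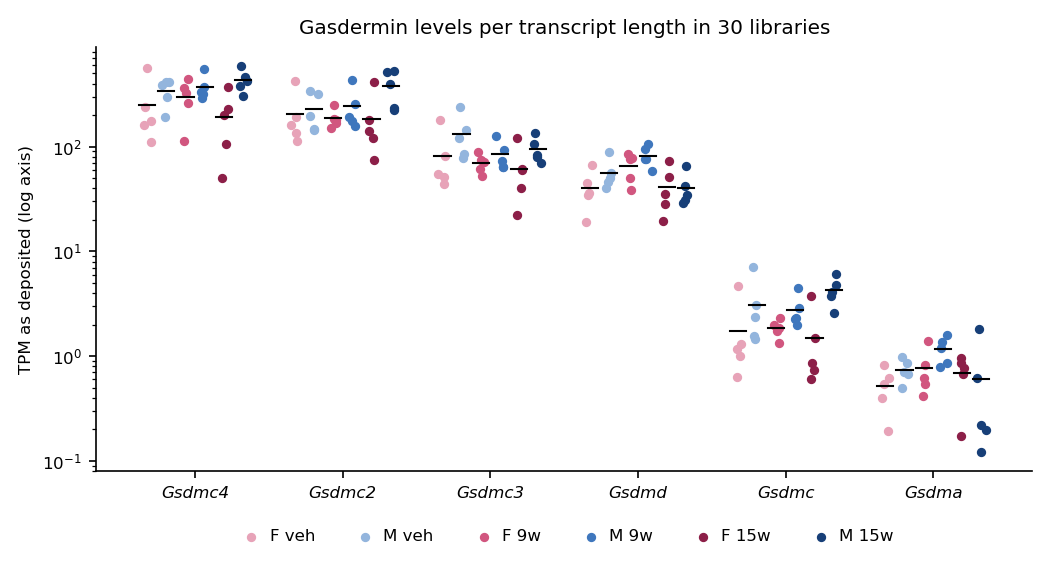
Deposited TPM (log axis) of the 6 gasdermin genes, 1 point per library, coloured by group, with a black bar at each group mean. *Gsdmc4*, *Gsdmc2*, *Gsdmc3* and *Gsdmd* sit above 19 TPM in every library, whereas *Gsdmc* and *Gsdma* stay at or below 7.06 TPM.

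At 9 weeks, soon after the last DSS cycle, *Gsdmc3* was called lower. *Gsdmd*, described below, passed the threshold on p but not that on size, and no test set 1 member against another. *Gsdmc3* fell by 0.84 on the log2 scale (SE 0.24, adjusted p = 0.0156) in the mean of both sexes, to 0.557 times the vehicle level. It was the only member called, 1 of 5 tested, where 8.23% of all genes tested were called. In male vehicle mice *Gsdmc3* stood at 489.7, 397, 241, 216 and 399 CPM (348 ± 116, SD, n = 5), and in male 9-week AOM/DSS mice at 258, 132, 182, 139.6 and 111 CPM (165 ± 58.4, SD, n = 5). All 5 treated males were below the vehicle median and 4 of the 5 were below the lowest vehicle mouse. The fall in males was 1.08 on the log2 scale (SE 0.34, adjusted p = 0.0422), and 7.24% of all genes were called in that comparison.

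In female vehicle mice *Gsdmc3* stood at 439.5, 147, 120.4, 317 and 258 CPM (256 ± 130.1, SD, n = 5), and in female 9-week AOM/DSS mice at 248, 132.6, 143.7, 117 and 199.96 CPM (168.3 ± 54.3, SD, n = 5). The groups overlapped over most of their range, although all 5 treated females were below the vehicle median and 1 was below the lowest vehicle mouse. The log2 fold change in females was -0.61 (adjusted p = 0.383), which was not called, and no member was called there, against 2.84% of all genes. The male minus female difference in response was -0.48 on the log2 scale (adjusted p = 0.853), so a difference between the sexes was not shown.

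The fall of *Gsdmc3* in the mean of both sexes was called with each of the 20 libraries left out in turn. Without male vehicle replicate 1 it was -0.77 (adjusted p = 0.0327), and without female 9-week AOM/DSS replicate 5 it was -0.89 (adjusted p = 0.0136). It was not called from TPM values (-0.32, adjusted p = 0.438), nor from TPM values rescaled between libraries (-0.64, adjusted p = 0.0789). The call in males alone was weaker. It was lost when any of 7 of the 10 male libraries was left out, namely vehicle replicates 1, 2 and 5 and AOM/DSS replicates 2, 3, 4 and 5, with adjusted p between 0.0712 and 0.124, and was -0.93 (adjusted p = 0.124) without male vehicle replicate 1. Markers of the position along the colon did not give 1 direction. The median summed CPM of the 7 proximal markers was 3037 in male vehicle and 2146 in male 9-week AOM/DSS libraries, and 5826 and 2477 in females. The median sum of the 6 distal colon markers in the table was 281 in female vehicle and 321 in female 9-week AOM/DSS libraries. In males the distal sum was 438 to 1086 in vehicle libraries and 285 to 520.2 in 9-week AOM/DSS libraries. Of the 6 distal markers 1 was called lower, in males as in the mean of both sexes. In males this marker call was lost without male vehicle replicate 1 (0 of 6). With a proximal minus distal colon score in the model the fall was 0.72 in the mean of both sexes (adjusted p = 0.0336) and 0.87 in males (adjusted p = 0.109). Smooth muscle markers moved with the fall of *Gsdmc3* in males, where 7 of 7 were called lower. Without male vehicle replicate 1 the count was 0 of 7 (list median -1.06 on the log2 scale instead of -5.09). With a mesenchyme score in the model the log2 fold change of *Gsdmc3* in males was -1.02 (adjusted p = 0.0472).

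*Gsdmd*, the pore-former of the inflammasome pathway, was higher at 9 weeks by a small and even amount. Female vehicle mice had 212, 162.1, 132.7, 142.1 and 138 CPM (157.4 ± 32.3, SD, n = 5), and female 9-week AOM/DSS mice 191, 206, 210.0, 198 and 193 CPM (199.5 ± 8.20, SD, n = 5). Male vehicle mice had 214, 176.98, 196, 136 and 178.3 CPM (180.3 ± 29.0, SD, n = 5), and male 9-week AOM/DSS mice 214, 269, 206, 174 and 221 CPM (217 ± 34.1, SD, n = 5). All 5 treated females were above their vehicle median and 0 were above the highest vehicle female. Of the treated males 4 were above their vehicle median and 3 above the highest vehicle male. The groups overlapped in both sexes. The log2 fold change in the mean of both sexes was 0.30 (SE 0.10, adjusted p = 0.0347), past the threshold on p and under the minimum of 0.4 on size, so that *Gsdmd* was not called. With single libraries left out the value ran from 0.26 to 0.37, with adjusted p from 0.00684 to 0.0828. Within each sex alone the change was 0.34 in females (adjusted p = 0.190) and 0.27 in males (adjusted p = 0.241).

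The other 3 tested members showed no called change at 9 weeks. The log2 fold changes in the mean of both sexes were -0.25 for *Gsdmc2* (adjusted p = 0.623), -0.08 for *Gsdmc4* (adjusted p = 0.865) and 0.32 for *Gsdma* (adjusted p = 0.481), and TPM values without rescaling gave *Gsdmc2* and *Gsdmc4* the opposite sign. *Gsdmc2* spanned 383 to 870.2 CPM in 9-week females and 357 to 1196 CPM in 9-week males, and *Gsdmc4* spanned 572 to 1679 CPM and 757 to 1609 CPM. Each of these ranges overlapped that of the vehicle mice of the same sex.

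**Figure D2:**
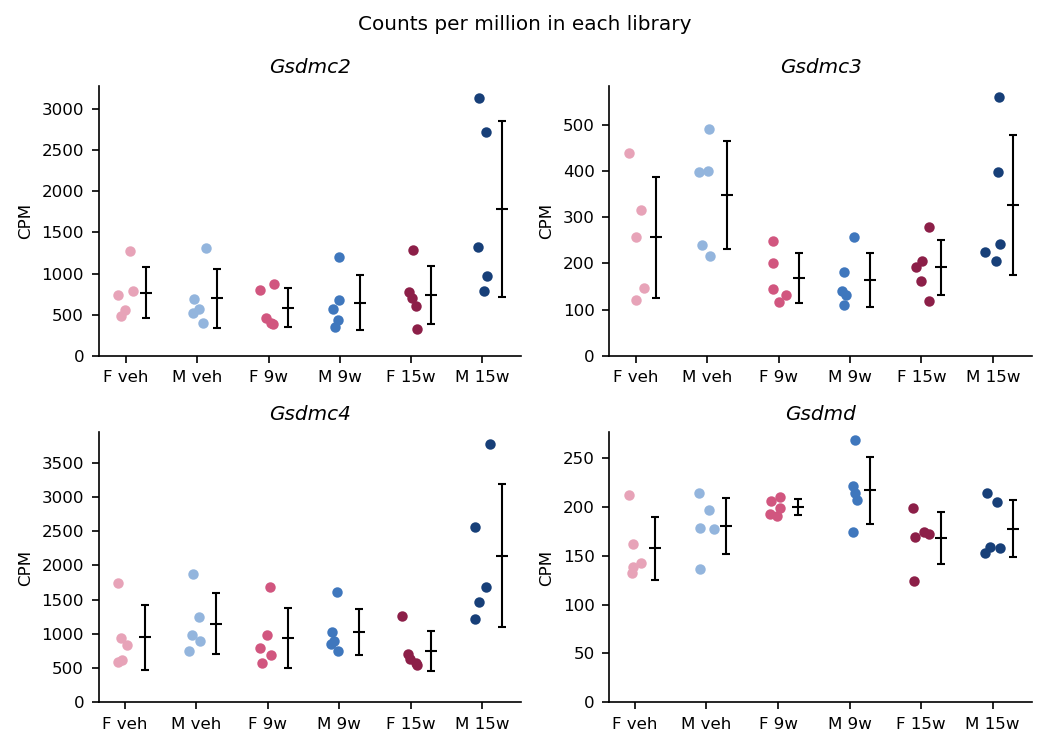
CPM of *Gsdmc2*, *Gsdmc3*, *Gsdmc4* and *Gsdmd* in each of the 30 libraries (points) with the group mean ± SD (bars, n = 5), axes starting at 0. The *Gsdmc3* points of the male 9-week AOM/DSS group reach from 111 to 258 CPM, and the *Gsdmc2* and *Gsdmc4* points of the male 15-week group reach 3135 and 3773 CPM.

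At 15 weeks, long after the last DSS cycle, the high values belonged to *Gsdmc2* and *Gsdmc4* in males. No member was called in the mean of both sexes, where 7.26% of all genes were called; the log2 fold change of *Gsdmc2* was 0.65 (SE 0.29, adjusted p = 0.120). *Gsdmc2* stood at 691, 1312, 527, 406 and 568 CPM in male vehicle mice (701 ± 356, SD, n = 5) and at 2719, 786, 3135, 965 and 1320.5 CPM in male 15-week AOM/DSS mice (1785 ± 1070.2, SD, n = 5). All 5 treated males were above the vehicle median and 3 were above the highest vehicle mouse, and the treated males were themselves spread widely, with replicates 1 and 3 far above the rest. *Gsdmc2* rose by 1.35 on the log2 scale in males (SE 0.42, adjusted p = 0.0328), to 2.55 times the vehicle level, the 1 of 5 tested members called there, where 8.84% of all genes were called.

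This rise depended on single libraries. It was not called without vehicle replicate 1, 3, 4 or 5 or AOM/DSS replicate 1 or 3, with values from 1.06 to 1.70 and adjusted p up to 0.0929 over the 10 males left out in turn. Without male vehicle replicate 1 it was 1.34 (adjusted p = 0.0849), and without AOM/DSS replicate 1 or 3 it was 1.16 or 1.06 (adjusted p = 0.0929 and 0.0924). With a mesenchyme score in the model it was 1.45 (adjusted p = 0.0833), and with a proximal minus distal colon score 1.29 (adjusted p = 0.145). In the same comparison 7 of 7 smooth muscle markers, 4 of 9 mesenchyme markers, 1 of 6 distal colon markers and 1 of 7 macrophage markers were called lower. Without male vehicle replicate 1 these counts were 0, 1, 0 and 0. Epithelial markers moved the other way, with 3 of 8 called higher, namely the keratins *Krt20* (1.09), *Krt18* (0.83) and *Krt8* (0.47), and 2 of 8 without that library. Of 7 goblet cell markers 1 was called higher, and of 7 crypt base markers 1 was called higher (0 without that library) and 1 lower. The part of these markers in the rise of *Gsdmc2* was not tested.

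*Gsdmc4* stood at 982, 1876, 745, 894 and 1248 CPM in male vehicle mice (1149 ± 446, SD, n = 5) and at 2556, 1217, 3773, 1688 and 1467 CPM in male 15-week AOM/DSS mice (2140.1 ± 1043, SD, n = 5). The 2 highest libraries were replicates 1 and 3, the same mice as for *Gsdmc2*. The log2 fold change was 0.90 (SE 0.35, adjusted p = 0.0802), which was not called, although DESeq2 gave an adjusted p of 0.0415. In females the treated and vehicle mice overlapped over nearly the whole of their ranges. *Gsdmc2* went from 1269.5, 556, 481, 782 and 737 CPM in vehicle mice (765 ± 308, SD, n = 5) to 698, 775, 604, 1284 and 326 CPM at 15 weeks (737 ± 349.7, SD, n = 5), a log2 fold change of -0.05. *Gsdmc4* went from 1743, 622, 586, 842 and 947 CPM (948 ± 469, SD, n = 5) to 640.1, 550.2, 707, 1257 and 582 CPM (747 ± 291, SD, n = 5), a log2 fold change of -0.34. Neither was called, in a comparison that called 0.0922% of all genes.

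The sexes were also set against each other directly. Among 15-week AOM/DSS mice *Gsdmc4* was 1.52 higher in males on the log2 scale (SE 0.35), all 5 males were above the female median and 4 of the 5 were above the highest female. The adjusted p was 0.0604, so *Gsdmc4* was not called. Over 11 processing alternatives the adjusted p ran from 0.00308 (DESeq2) to 0.506, and 2 of them gave a call. Without female replicate 4 the difference was 1.79 (adjusted p = 0.0415), and without male replicate 3 it was 1.22 (adjusted p = 0.167). Markers of position along the colon also differed between these mice, with overlap. The summed CPM of the 7 proximal markers was 3134 to 7540 in females (median 5485) and 2866 to 5329 in males (median 3483). That of the 6 distal markers was 55.5 to 336 in females and 120 to 499 in males. The part of these markers in the difference of *Gsdmc4* was not tested. *Gsdmc2* was 1.28 higher in males (adjusted p = 0.174) and *Gsdmc3* 0.76 higher. No member was called between the sexes at 15 weeks, in vehicle mice or at 9 weeks, where 0.178%, 0.0553% and 0.0492% of all genes were called. The test of whether the response itself differed by sex called no member and 0% of all genes by edgeR at either time. It left 1194 genes at 9 weeks and 1242 at 15 weeks with an unadjusted p below 0.05, and DESeq2 called 1 and 4 genes. For the 15-week response the male minus female difference was 1.40 for *Gsdmc2* (SE 0.59, adjusted p = 0.571) and 1.24 for *Gsdmc4* (SE 0.49, adjusted p = 0.547). A sex difference in the response was therefore not shown for either gene.

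**Figure D3:**
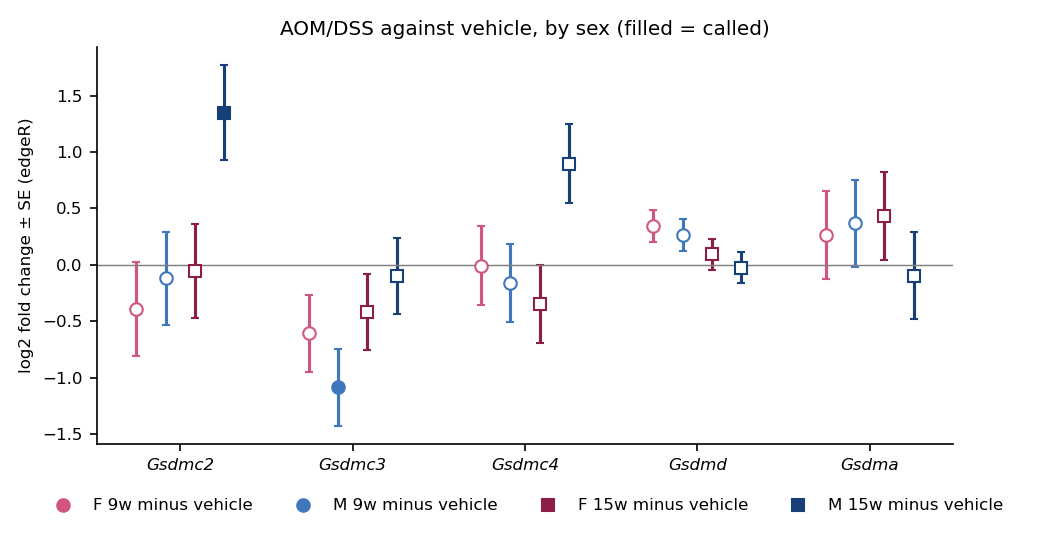
Log2 fold change against vehicle ± SE from edgeR for the 5 tested members, by sex and time; filled symbols were called. Only *Gsdmc3* in males at 9 weeks (-1.08) and *Gsdmc2* in males at 15 weeks (1.35) are filled.

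When AOM/DSS mice of the 2 times were compared, no member was called, where 2.26% of all genes were. The largest log2 difference was that of *Gsdmc2*, 0.90 higher at 15 weeks (SE 0.29, adjusted p = 0.0700). Without female 9-week AOM/DSS replicate 5 it was 0.99 higher and called (adjusted p = 0.0306). *Gsdmc3* was 0.59 higher (adjusted p = 0.137), *Gsdmc4* 0.36 higher, *Gsdma* 0.15 lower and *Gsdmd* 0.27 lower (adjusted p = 0.103), and TPM values without rescaling gave *Gsdmc3* and *Gsdmc4* the opposite sign. *Gsdmd* stood at 169.4, 199, 124, 172 and 175 CPM in 15-week females (167.9 ± 26.9, SD, n = 5) and at 158.01, 158.3, 205, 152 and 214 CPM in 15-week males (177.4 ± 29.3, SD, n = 5), within the range of the vehicle mice of each sex except for 1 female below it. Its log2 fold change against vehicle at 15 weeks was 0.03. *Gsdmc3* at 15 weeks was 193, 206, 162.5, 279 and 119 CPM in females (192 ± 59.2, SD, n = 5) and 397, 205, 561, 243 and 224 CPM in males (326 ± 152, SD, n = 5), a log2 fold change of -0.26 against vehicle in the mean of both sexes that was not called.

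The balance within the *Gsdmc* cluster is described here by the share of each gene in the summed counts of *Gsdmc2*, *Gsdmc3* and *Gsdmc4*, which does not depend on scaling between libraries. *Gsdmc3* held 22.6%, 11.1%, 15.9%, 14.2% and 18.0% of the sum in male vehicle mice (mean 16.4%). It held 8.43%, 9.28%, 9.62%, 8.75% and 9.05% in male 9-week AOM/DSS mice (mean 9.03%), and 6.99%, 9.26%, 7.51%, 8.39% and 7.43% in male 15-week AOM/DSS mice (mean 7.92%). Every treated male had a lower share than every vehicle male at both times. How many other sets of genes separate these groups was not counted, so this is a description. In females the groups overlapped, with 10.1% to 16.3% in vehicle mice, 8.86% to 12.7% at 9 weeks and 9.91% to 13.4% at 15 weeks. The 2 male comparisons share the vehicle libraries, and the shares come from the same counts as the tests above, so no test is given. From TPM values the shares of *Gsdmc3* were 13.7% to 24.3% in male vehicle mice, 11.4% to 12.9% at 9 weeks and 9.26% to 11.6% at 15 weeks. The sum itself averaged 2198 CPM in male vehicle mice, 1840.0 CPM in 9-week males and 4251 CPM in 15-week males, so that at 15 weeks the lower share went with a higher sum.

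**Figure D4:**
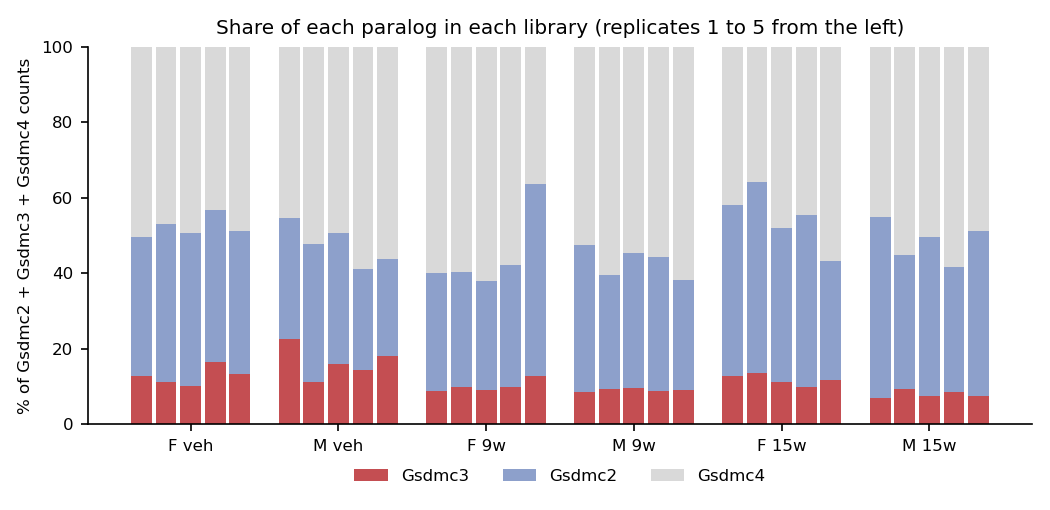
Share (%) of *Gsdmc2*, *Gsdmc3* and *Gsdmc4* in their summed counts, 1 stacked bar per library in replicate order within each group. The *Gsdmc3* segment is 11.1% to 22.6% in male vehicle libraries and at most 9.62% in male AOM/DSS libraries.

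The levels of the 3 abundant copies went up and down together from mouse to mouse. Over the 30 libraries the Pearson correlation of log2 CPM was 0.82 between *Gsdmc2* and *Gsdmc4*, 0.77 between *Gsdmc2* and *Gsdmc3* and 0.72 between *Gsdmc3* and *Gsdmc4*, and 0.79, 0.88 and 0.80 after the group means were removed. These genes share sequence and the libraries share groups, so the values are a description. *Gsdmd* had correlations between -0.01 and 0.14 with them, and of 0.23, 0.31 and 0.19 with *Gsdmc2*, *Gsdmc3* and *Gsdmc4* after the group means were removed.

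*Gsdmc*, the first gene of the cluster, was at the edge of detection. It had 34 counts in all 30 libraries together and 0 in 19 of them, and did not pass the filter. The 11 libraries with a count included male vehicle replicate 1 with 13 counts, while all 5 female 9-week libraries had 0. A count of 0 allows up to 3 counts, which was 0.101 to 0.324 CPM (on unscaled library sizes) in those 19 libraries. Its deposited TPM was nevertheless above 0 in all 30 libraries, from 0.609 to 7.06, so the count table and the TPM table disagree on this gene and no fold change is given.

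*Gsdma* was low, with 18 to 248 counts per library and 1.24 to 8.49 CPM. The 15-week males had 1.78, 3.38, 1.29, 1.24 and 8.49 CPM (3.24 ± 3.06, SD, n = 5), so that the lowest and the highest of the 30 libraries were in this group. None of its comparisons was called. Squamous and skin markers, which would accompany skin or anal epithelium, summed to at most 11.6 CPM in 5 groups and reached 285 CPM in male vehicle libraries, where *Gsdma* was 2.96, 3.04, 4.27, 4.18 and 3.02 CPM.

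The table held 7 further gasdermin loci, of which 3 passed the filter. *Gsdmcl-ps*, annotated as a pseudogene at chr15:63914448-63925666 next to *Gsdmc4*, stood at 4.62, 15.1, 6.25, 4.66 and 4.81 CPM in male vehicle mice and at 21.2, 8.85, 43.7, 14.9 and 16.1 CPM in male 15-week AOM/DSS mice. Replicates 1 and 3 were again the highest treated males. In males at 15 weeks it rose by 1.57 on the log2 scale (SE 0.45, adjusted p = 0.0208), and was 1.45 higher without a call when male vehicle replicate 1 was left out (adjusted p = 0.0729). *Dfna5*, the older symbol of *Gsdme*, whose protein is cut by caspase-3, stood at 7.50, 40.5, 31.1, 15.6 and 31.0 CPM in female vehicle mice and at 3.41, 11.3, 20.1, 14.6 and 7.02 CPM in male vehicle mice. It was 1.15 lower in males on the log2 scale, with an unadjusted p of 0.00914 and an adjusted p of 0.132, and was not called in any of the comparisons. *Gsdmcl2* had 1 to 24 counts per library. The remaining loci, *Gsdma2*, *Gsdma3*, *Gsdmcl1* and *Dfnb59*, had at most 4 counts in any library.

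The genes that act before and after the pore were taken as 5 lists. In the mean of both sexes the share of all genes called, against which each count below is to be read, was 8.23% at 9 weeks (890 genes higher and 449 lower), 7.26% at 15 weeks (554 higher and 626 lower) and 2.26% between the times (67 higher and 301 lower). Sensors and the adaptor of the inflammasome assemble the platform that activates caspase-1. At 9 weeks none of the 12 tested of 14 listed was called, and the median log2 fold change was 0.11, against -0.02 over all genes tested. *Pycard*, the adaptor, was 0.31 higher (adjusted p = 0.00708) and thus under the minimum on size, while *Nlrp3* was 4.70 higher (adjusted p = 0.000350) but below an FPKM of 1 in every compared group. At 15 weeks *Naip6*, a receptor for bacterial proteins, fell by 0.46 (adjusted p = 0.0312), the 1 called member, and *Pycard* was 0.38 higher (adjusted p = 0.00303).

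Of the listed proteases (caspases, granzymes and cathepsin B), 4 of 10 tested rose at 9 weeks and none fell. Which of them cut a gasdermin in these mice was not tested. *Casp4*, the caspase that senses lipopolysaccharide in the cell and cuts *Gsdmd* protein, rose by 0.72 (SE 0.12, adjusted p = 0.000166). It went from 36.2 ± 8.79 to 71.7 ± 16.1 CPM in males and from 56.3 ± 8.99 to 77.3 ± 16.1 CPM in females (SD, n = 5). By sex it was called in males (0.99, adjusted p = 0.000631) but not in females (0.46, adjusted p = 0.156). In females it was 0.32 (adjusted p = 0.277) without AOM/DSS replicate 5. The difference in response at 9 weeks was not called (adjusted p = 0.661). *Casp8* rose by 0.58 (adjusted p = 1.92e-05), and the granzymes of cytotoxic lymphocytes *Gzma* and *Gzmb* rose by 1.96 and 1.81 (adjusted p = 0.0140 and 0.0317). In vehicle libraries *Gzma* was 0.0325 to 3.57 CPM and *Gzmb* 0.0352 to 3.16 CPM, so the size of the granzyme rises rests on low vehicle levels. The call of *Gzmb* was lost without male vehicle replicate 1 (adjusted p = 0.0521) and without female 9-week AOM/DSS replicate 5 (adjusted p = 0.0540). *Casp1*, the inflammasome caspase itself, was 0.17 higher (adjusted p = 0.153). At 15 weeks *Casp4* and *Casp8* were called higher than vehicle, by 0.60 and 0.44 (adjusted p = 0.00244 and 0.00122), and no other protease was called. Without male vehicle replicate 1 *Casp8* was 0.39 higher (adjusted p = 0.00129), under the minimum on size. In males alone at 15 weeks the rises were 1.01 and 0.59, where 8.84% of all genes were called, and in females no protease was called, where 0.0922% of all genes were. The male minus female difference in response was not called for *Casp4* (adjusted p = 0.467) or *Casp8* (adjusted p = 0.716), so a difference between the sexes was not shown.

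Among the genes for cargo, membrane rupture and repair, 2 of 10 tested rose at 9 weeks. *Il1b* rose by 6.88 on the log2 scale (SE 0.94, adjusted p = 1.10e-05) and *Il1a* by 6.97 (adjusted p = 1.46e-05), with a very wide spread: *Il1b* ranged from 0.430 to 226 CPM in female 9-week libraries and from 5.31 to 123 CPM in male ones. In vehicle libraries *Il1b* was 0 to 1.23 CPM and *Il1a* 0 to 0.260 CPM, so the size of these rises rests on few vehicle counts. Without female 9-week AOM/DSS replicate 5 the rises were 7.03 and 7.12 (adjusted p = 1.70e-06 and 1.85e-06). *Il18*, the gasdermin cargo that epithelial cells make, was not called, with a log2 fold change of -0.01 (adjusted p = 0.975) at levels of 79.6 ± 34.4 and 123 ± 25.3 CPM in female and male vehicle mice. At 15 weeks *Panx1*, a membrane channel, rose by 0.42 (adjusted p = 0.00840; 0.38 and not called without male vehicle replicate 1), and *Il1b* was 2.51 higher without a call (adjusted p = 0.0528). From 9 to 15 weeks *Il1a* fell by 4.46 and *Il1b* fell by 4.37.

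The interferon-driven activators include guanylate-binding proteins, which help expose bacterial lipopolysaccharide to caspase-4. At 9 weeks 6 of 7 tested rose, with a list median of 2.27, and those with the largest change were *Gbp5* (3.70, adjusted p = 7.20e-05), *Gbp2* (3.13, adjusted p = 1.48e-06) and *Gbp3* (2.77, adjusted p = 5.75e-07). In vehicle libraries *Gbp5* was 0.0740 to 2.54 CPM, so the size of its rise rests on low vehicle levels. *Irf1*, the interferon regulatory factor, rose by 0.75 (adjusted p = 2.31e-05). At 15 weeks 3 rose and 1 fell, the risers being *Gbp2* (1.78), *Gbp3* (1.47) and *Irgm2* (1.20) and the other *Irf2* (-0.41, adjusted p = 0.0191), which was -0.26 and not called without male vehicle replicate 1. Between 9 and 15 weeks 5 of the 7 fell.

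The type 2 response list holds cytokines and receptors of type 2 immunity, *Stat6* and epithelial genes, among them tuft cell genes. The cytokines *Il4*, *Il13* and *Il5* were not tested. They reached at most 0.171, 0.128 and 0.0704 CPM in any library. The interleukin-4 and interleukin-13 receptor chains *Il4ra* and *Il13ra1* rose at 9 weeks by 1.59 and 0.63 (adjusted p = 1.44e-07 and 0.00463), 2 of 10 tested. *Stat6*, the transcription factor of that pathway, had a log2 fold change of 0.01 (adjusted p = 0.968). At 15 weeks *Il4ra* rose by 1.05 against vehicle (adjusted p = 0.000167). The list median was -0.09 at 9 weeks and 0.41 at 15 weeks.

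**Figure D5:**
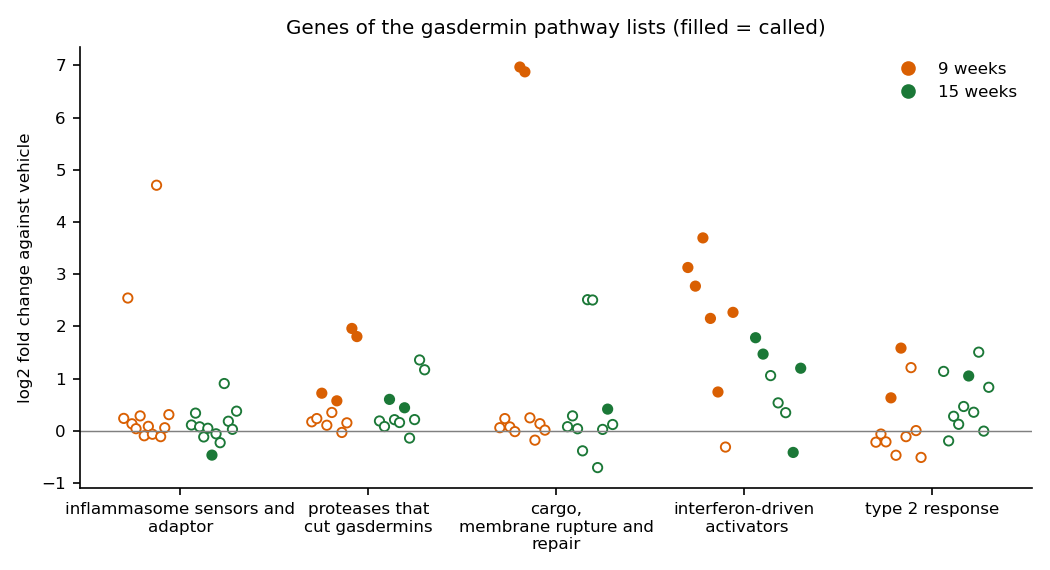
Log2 fold change against vehicle in the mean of both sexes for the tested genes of the 5 pathway lists at 9 and 15 weeks, 1 point per gene; filled points were called. The interferon-driven activators lie highest at 9 weeks, with a list median of 2.27, and the cargo list holds *Il1a* and *Il1b* near 7.

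Immune cell markers moved with these lists, and their counts stand against the same shares of all genes. At 9 weeks, in the mean of both sexes, 4 of 6 neutrophil, 3 of 7 T cell, 3 of 7 macrophage, 2 of 6 plasma cell and 0 of 6 B cell markers were called higher. The summed CPM of 5 neutrophil markers (without *Ly6g*, which had counts in every library) was 0 to 0.282 in female and 0.214 to 3.32 in male vehicle libraries, 0.430 to 111 and 4.88 to 61.7 at 9 weeks and 0.682 to 5.80 and 0.534 to 15.8 at 15 weeks. Their part in the changes of the pathway genes was not tested. At 15 weeks 2 of 6 neutrophil and 2 of 7 T cell markers were called higher, and 7 of 7 smooth muscle, 3 of 9 mesenchyme and 3 of 6 distal colon markers lower. Without male vehicle replicate 1 the last 3 counts were 0, 1 and 2, those of neutrophil and T cell markers at 15 weeks stayed at 2 and 2, and that of macrophage markers at 9 weeks was 5. Without female 9-week AOM/DSS replicate 5 the 9-week counts of neutrophil, T cell, macrophage and plasma cell markers were 4, 3, 4 and 3. Of the epithelial markers 1 of 8 was called higher at 9 weeks and 2 of 8 at 15 weeks. Among 10 markers of mature colonocytes 1 was called higher and 1 lower at 9 weeks, and 1 of 7 goblet cell markers was called higher at either time. Crypt base markers went both ways, 2 of 7 higher and 3 lower at 9 weeks and 1 higher and 2 lower at 15 weeks, and no proximal colon marker was called. Leaving out either library moved the counts of epithelial, colonocyte, goblet cell, crypt base and proximal colon markers by at most 1 in the mean of both sexes against vehicle. Of 3 tested squamous markers none was called in the mean of both sexes, and 2 were called lower in males at 9 weeks, but 0 without male vehicle replicate 1.

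Among the genes most like each member by Pearson correlation of log2 CPM over the 30 libraries were *Pla2g4c* (0.84) and *Gsdmc4* (0.82) for *Gsdmc2*, and *Gsdmcl-ps* (0.88) and *Gsdmc2* (0.82) for *Gsdmc4*. For *Gsdmc3* they included *Gsdmc2* (0.77) and *Npc2* (0.76). For *Gsdmd* they were *9530082P21Rik* (0.83), *Atp6v0a1* (0.82) and *Sp100* (0.79), and for *Gsdma* they were *Nlgn2* (0.71), *Evl* (0.70) and *Cd244* (0.69). The libraries share groups and some of these genes share reads, so no p is given.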

How the data were processed

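Per the labels and the study's methods, poly(A) RNA of the scraped colon epithelium was sequenced as stranded, paired reads on 30 libraries (6 groups of 5 mice). The authors trimmed reads with Trim Galore after bcl2fastq 2.20.0.422 and CASAVA, did not remove duplicates, aligned to GRCm38 with STAR, deposited counts per gene from featureCounts, and deposited FPKM and TPM values from StringTie. Versions of these last tools are not given in the sources used here.

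Counts were tested with edgeR 4.0.16 (quasi-likelihood, TMM scaling, filterByExpr, 1 fit of all 6 groups, R 4.3.3) with Benjamini-Hochberg adjustment over 16261 genes of 46078. A gene was called at an adjusted p below 0.05, an absolute log2 fold change above 0.4 and a mean FPKM of at least 1 in a compared group. CPM values use TMM-scaled library sizes, and correlations use log2 CPM with a prior count of 2. Values with ± are means and SD. The p-values measure the spread between these mice. Mean of both sexes is the average of the male and female fold changes. TPM and FPKM served for levels between genes and for the filter. Mitochondrial *mt-Nd4l* held 39.2% to 58.1% of TPM in a library but only 14 to 148 counts, so TPM fold changes between libraries move with it: with log2(TPM + 1) the median of all genes was 0.20 at 9 weeks, -0.18 at 15 weeks and -0.43 between them.

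Coding sequences were taken from the GRCm38 annotation and aligned with MAFFT 7.526. The edgeR script was tested on simulated counts. Within groups, 60 library pairs differed by a chi-square per degree of freedom of 13.8 to 297, so no library was a copy of another. Same-numbered libraries did not deviate together (median correlation -0.03 over 75 pairs, 12 of them over 0.1), so replicate numbers pair no samples.

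The members and gene lists were chosen with earlier results of these data known. Named are all members, the other gasdermin loci in the table, up to 3 called genes with the largest change per list and comparison, 9 genes whatever their result (*Casp1*, *Casp4*, *Casp8*, *Il1b*, *Il18*, *Pycard*, *Stat6*, *Il4ra*, *Irf1*) and the 3 genes most correlated with each tested member, of which 1 gene is not reported here. *Nlrp3*, *Irf2*, *Il4*, *Il13*, *Il5* and the marker examples were named with their values in view. Alternatives were DESeq2 1.42.0, the compared groups alone, RLE scaling, no filter, adjusted p alone, limma 3.58.1 on log2(TPM + 1) and log2(TPM + 0.1), a replicate block, a mesenchyme score and a proximal minus distal colon score as covariates, each library left out, and, added after seeing the data, TPM rescaled by TMM and the gene lists without each of the 2 libraries that stood apart.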

Additional observations from a re-analysis of the deposited data

Results flagged for a closer look

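The gasdermin values of 35 sets of 5 libraries (by group) were set against Dixon's 95% critical value of 0.71. Chance alone marks about 1 set in 20 where values are normally distributed, which counts near 0 are not. In 2 sets a library lay farther from the others than that value allows. The first was *Gsdmc4* in 15-week AOM/DSS females, where replicate 4 stood at 1257 CPM and the next at 707 CPM (ratio 0.778). Without it the male minus female difference of *Gsdmc4* at 15 weeks passed the threshold, as given under the processing alternatives. The other was *Gsdmc* in the same library, which had 2 counts (0.0713 CPM) where the other 4 libraries had 0, a value at the edge of detection. With those 4 at 0, any count above 0 would have been marked. Whether anything technical sets this library apart was not tested.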

How the results depend on the processing

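Among the counts of called gasdermin genes, 258 alternatives stayed within 1.5 times the count as reported and 44 did not. These pool all 12 comparisons. In most of them no member was called as reported, and a count that stays at 0 is within. The calls themselves held less often. *Gsdmc3* at 9 weeks stayed called in 8 of 11 alternatives in the mean of both sexes and in 6 of 11 in males. *Gsdmc2* in males at 15 weeks stayed called in 3 of 11. With single libraries left out these were 20 of 20, 3 of 10 and 4 of 10. Of the 11 alternatives 1, adjusted p alone, is not a refit but the fit as reported with fewer thresholds. A call cannot be lost there, so each of the 3 counts out of 11 includes it by construction. At 9 weeks, in the mean of both sexes, 1 member was called; with adjusted p alone the count was 2 (*Gsdmd* joined *Gsdmc3*), and it was 0 with log2(TPM + 1), log2(TPM + 0.1) and rescaled TPM. In males at 9 weeks it was 0 without the filter, with the 3 TPM fits and with the proximal minus distal score, and 0 to 1 with single males left out. In males at 15 weeks it was 2 with DESeq2 and 0 with the compared groups alone (*Gsdmc2* 1.36, adjusted p = 0.113), without the filter, with the 3 TPM fits and with either covariate, and 0 to 2 with single males left out. Replicate numbers pair no samples, but with the replicate block the count there was also 0 (*Gsdmc2* 1.26, adjusted p = 0.0533), and the block changed no other count of calls. Between 15 and 9 weeks the count was 1 with DESeq2 (*Gsdmc2*, adjusted p = 0.0480) and 0 to 1 with single libraries left out. It was 1 with log2(TPM + 1) (*Gsdmd*) and 2 with log2(TPM + 0.1) (*Gsdmd* and *Gsdma*). These TPM calls were all lower at 15 weeks, and *Gsdmc2* was not among them. Between the sexes at 15 weeks it was 1 with DESeq2 and 1 with the mesenchyme score (*Gsdmc4*), and 0 to 1 with libraries left out, where leaving out female replicate 4 or male replicate 2 gave the call. At 15 weeks against vehicle in the mean of both sexes and at 9 weeks in females it was 0 to 1 with libraries left out (*Gsdmc2* without male vehicle replicate 2, *Gsdmd* without female vehicle replicate 1). The causes were not tested.

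Changes of sign occurred only in values that were not called. With log2(TPM + 1) and log2(TPM + 0.1), *Gsdmc2* at 9 weeks in the mean of both sexes was 0.0431 and 0.0436, *Gsdmc4* 0.2536 and 0.2546, and at 15 weeks *Gsdma* was -0.0335 and -0.2149, *Gsdmc4* -0.0433 and -0.0446 and *Gsdmd* -0.2329 and -0.2380. Between 15 and 9 weeks *Gsdmc3* was -0.0967 and -0.1003 and *Gsdmc4* -0.2968 and -0.2992. After rescaling, which moved the median of all genes from -0.43 to -0.01 between 15 and 9 weeks, these signs were those of the counts. With the proximal minus distal score *Gsdma* was -0.2199 and *Gsdmc3* 0.0582 at 15 weeks. With single libraries left out *Gsdmc4* ran from -0.2375 to 0.0880 at 9 weeks (0.0423 without male vehicle replicate 2), and at 15 weeks *Gsdma* from -0.1942 to 0.2847 and *Gsdmd* from -0.0079 to 0.1002. *Gsdmc2* in females at 15 weeks ran from -0.3486 to 0.2070 (0.0110 and 0.1358 without AOM/DSS replicates 3 and 5) and was 0.0079 with the block.

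The share of all genes called also moved. In males at 15 weeks 1438 genes were called, 182 with the compared groups alone and 1772 with DESeq2, and in females at 15 weeks 15 and 89 with DESeq2, so the percentages beside the member counts hold for the fit as reported. Female vehicle replicate 5, with 9265804 counts, was the shallowest library, and *Gsdmc* was near the limit of detection.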
